A study of Mus musculus with 13 samples.

Results

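The comparison described here was between 5 ACLP-NT libraries and 4 Aducanumab libraries of mouse hippocampus, 9 of the 13 libraries sequenced. All mice were 5xFAD, a line that carries a human APP transgene with familial Alzheimer's disease mutations under a neuronal Thy1 promoter and deposits amyloid early in life. No wild-type animals are among the libraries. The labels number the animals: ACLP-NT was given to 17, 27, 49, 53 and 55, Aducanumab to 24, 50, 56 and 58, and saline to 18, 19, 32 and 38. The 4 saline libraries shared the fit and serve as the background level. Libraries were chosen by their treatment label alone, and genes were left out of the test only by a filter on low counts. ACLP-NT is known here by its code name. The series title describes a nanomedicine aimed at lysosomes of microglia. Aducanumab is an antibody to aggregated amyloid beta. The sources used here give no age, sex, dose, route, length of treatment or batch. Nothing in the labels says whether animals shared a litter or cage, and the p-values measure only the spread between these libraries.

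Amyloid plaques in this line are surrounded by microglia and astrocytes that change their expression. Microglia around plaques lose homeostatic genes such as P2ry12 and gain the disease-associated set, among them Trem2, Cst7 and Spp1, while astrocytes raise Gfap, Vim and Serpina3n. An antibody bound to plaques can engage Fc receptors on microglia, and material taken up by microglia is broken down in lysosomes by hydrolases such as cathepsin D. The 2 treatments were therefore compared over genes of microglia, Fc receptors, complement, lysosome, autophagy, amyloid processing and astrocytes, and over markers of neurons, vessels and neighbouring tissue.

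Total counts ran from 53642019 to 64874729 in ACLP-NT, from 56858092 to 64431803 in Aducanumab and from 57513570 to 69734713 in saline. The table lists 36287 genes, of which 22065 passed the filter on low counts. The hippocampal markers Prox1, Wfs1, Grik4 and Fibcd1 were present in all 13 libraries (Prox1 between 89.6 and 142 CPM, which are counts scaled to the library total). Libraries of 1 group differed from each other by more than counting error in every pair. Some libraries stood apart in markers of tissue next to the hippocampus. Summed over 18 choroid plexus markers, the level ran from 306 to 8062 CPM within ACLP-NT, from 318 to 8474 CPM within Aducanumab and from 271 to 8117 CPM within saline. Over 14 tested markers of thalamus and midbrain, Aducanumab 50 reached 441 CPM. Over 16 markers of meningeal fibroblasts, Aducanumab 58 reached 913 CPM, against 169 to 548 CPM in ACLP-NT. Igf2 and Igfbp2 made up 360 and 189 CPM of the sum in Aducanumab 58, and they stood at 247 and 145 CPM in saline 38. Results that move with Aducanumab 50 or 58 are given below with and without that library. These are bulk samples, so fewer cells of a type and less RNA per cell cannot be told apart.

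Between ACLP-NT and Aducanumab, 0 of 22065 genes (0%) passed an adjusted p of 0.05 in the edgeR quasi-likelihood test with Benjamini-Hochberg adjustment, and the smallest adjusted p was 1. At an unadjusted p under 0.05 there were 716 genes (3.24%), where 5% of the genes tested would be 1103. Of these, 338 (1.53%) were higher in ACLP-NT and 378 (1.71%) were lower. Levels did not overlap between the 9 libraries, with ACLP-NT above, for 153 genes (0.693%), and with ACLP-NT below for 142 genes (0.644%). Over genes with a mean of at least 1 CPM, 16185 in number, the median 95% interval reached 0.20 on the log2 scale to either side of the fold change (10th to 90th percentile 0.10 to 0.56). The median fold change over all genes tested was -0.0064. Libraries of the 2 treatments were about as far from each other as libraries of 1 treatment. The root mean square log2 distance averaged 0.748 over the 20 pairs between ACLP-NT and Aducanumab, 0.737 over the 10 pairs within ACLP-NT and 0.779 over the 6 pairs within Aducanumab. Other tools gave few calls. DESeq2 called 3 genes at an adjusted p of 0.05, namely Rnasek, Smoc1 and 4933407K13Rik, with 757 at unadjusted p under 0.05, and limma, run on log2(FPKM + 1), made 0 calls with 846 genes at unadjusted p under 0.05. In what follows "higher" and "lower" describe values of ACLP-NT against Aducanumab that did not pass the adjusted edgeR test.

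The genes with the smallest p that were lower in ACLP-NT included secreted proteins of the matrix and of plaques. Smoc1 encodes a secreted calcium-binding protein related to SPARC. Its level was 15.2, 14.7, 13.8, 11.7 and 12.8 CPM in ACLP-NT 17, 27, 49, 53 and 55, and 18.9, 18.4, 20.4 and 26.0 CPM in Aducanumab 24, 50, 56 and 58. Every ACLP-NT library lay below every Aducanumab library and also below the saline libraries, which ran from 15.6 to 24.4 CPM. The Smoc1 log2 fold change was -0.62 (SE 0.132, edgeR unadjusted p = 0.000376), and it stayed between -0.67 and -0.49 with any 1 library left out. DESeq2 gave Smoc1 an adjusted p of 0.0390. Against saline, Smoc1 differed by -0.50 in ACLP-NT and 0.12 in Aducanumab. These 2 comparisons share the 4 saline libraries, as do all values against saline given here.

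Col25a1 encodes a neuronal transmembrane collagen whose shed part binds fibrillar amyloid beta and is a component of plaques. It was measured at 68.0, 63.2, 72.7, 57.9 and 67.3 CPM in the ACLP-NT libraries and at 76.8, 85.5, 77.7 and 81.5 CPM in the Aducanumab libraries. The groups did not overlap, and here the saline libraries (61.7 ± 4.79 CPM, SD, n = 4) lay with ACLP-NT (65.8 ± 5.56 CPM, SD, n = 5) rather than with Aducanumab (80.4 ± 4.01 CPM, SD, n = 4). The Col25a1 log2 fold change was -0.29 (SE 0.0665, edgeR unadjusted p = 0.000696). Against saline, it was 0.09 in ACLP-NT (edgeR unadjusted p = 0.181) and 0.38 in Aducanumab (edgeR unadjusted p = 9.07e-05).

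Spp1, osteopontin, is a secreted glycoprotein made by plaque-associated microglia and by perivascular cells. It stood at 11.9, 13.4, 19.1, 9.36 and 7.32 CPM in ACLP-NT and at 19.4, 25.2, 14.2 and 48.0 CPM in Aducanumab. Aducanumab 58 was far above the others and Aducanumab 56 lay within the ACLP-NT range. The Spp1 log2 fold change was -1.13 (SE 0.310, edgeR unadjusted p = 0.00271), and without Aducanumab 58 it was -0.68. Saline libraries held 14.5 ± 1.3 CPM (SD, n = 4), so that the log2 difference from saline was -0.25 for ACLP-NT and 0.88 for Aducanumab. Aducanumab 58 was also the library highest in markers of meningeal fibroblasts, and their part in the Spp1 value was not tested.

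Rnasek, which encodes ribonuclease kappa, a small membrane protein, was measured at 38.7 CPM in Aducanumab 24, 20.2 CPM in Aducanumab 50, 20.4 CPM in Aducanumab 56 and 33.6 CPM in Aducanumab 58. The ACLP-NT libraries ran from 13.2 to 18.4 CPM and the saline libraries from 14.1 to 18.2 CPM, below all 4 Aducanumab libraries. The Rnasek log2 fold change was -0.82 (SE 0.176, edgeR unadjusted p = 0.000358), and DESeq2 gave an adjusted p of 0.0223. Gm21988, a predicted gene that overlaps Rnasek on the same strand in the GENCODE M21 annotation, moved the other way. It was lowest in the 2 libraries where Rnasek was highest, with 32.5 CPM in Aducanumab 24 and 39.9 CPM in Aducanumab 58, and its log2 fold change was 0.39 (edgeR unadjusted p = 0.0106). The sum of Rnasek and Gm21988 was 75.3 ± 3.51 CPM (SD, n = 5) in ACLP-NT, 73.5 ± 4.54 CPM (SD, n = 4) in Aducanumab and 75.3 ± 6.83 CPM (SD, n = 4) in saline. The sources used here do not say how the authors' counting divided reads between the overlapping genes, so the Rnasek value is uncertain.

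Another 6 genes were named among those lower in ACLP-NT. Sparc, a secreted matrix protein that microglia and astrocytes make in brain, was 281, 275, 289, 267 and 262 CPM in ACLP-NT and 318, 336, 292 and 320 CPM in Aducanumab. The 2 groups of Sparc values met at 289 and 292 CPM without overlap (log2 fold change -0.20, SE 0.0570, edgeR unadjusted p = 0.00303). Hgf, the ligand of the MET receptor, was 3.78 ± 0.415 CPM (SD, n = 5) in ACLP-NT and 5.07 ± 0.596 CPM (SD, n = 4) in Aducanumab, a log2 fold change of -0.42. The transcription factors Mycn and Zfp423 had log2 fold changes of -0.38 and -0.43. Xrcc5, the Ku80 subunit that binds broken DNA ends, and Hint1, a nucleotide hydrolase, had -0.29 and -0.18. For each of these 6 genes all ACLP-NT libraries lay below all Aducanumab libraries, and edgeR unadjusted p ran from 0.000922 (Xrcc5) to 0.00344 (Hgf). The genes were picked by p in the same libraries, so the lack of overlap is no separate evidence. For Xrcc5 and Hgf the saline means (19.3 and 5.01 CPM) were close to Aducanumab (19.5 and 5.07 CPM), and for Hint1 the saline mean of 48.3 CPM lay between 46.3 CPM in ACLP-NT and 52.3 CPM in Aducanumab.

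**Figure D1:**
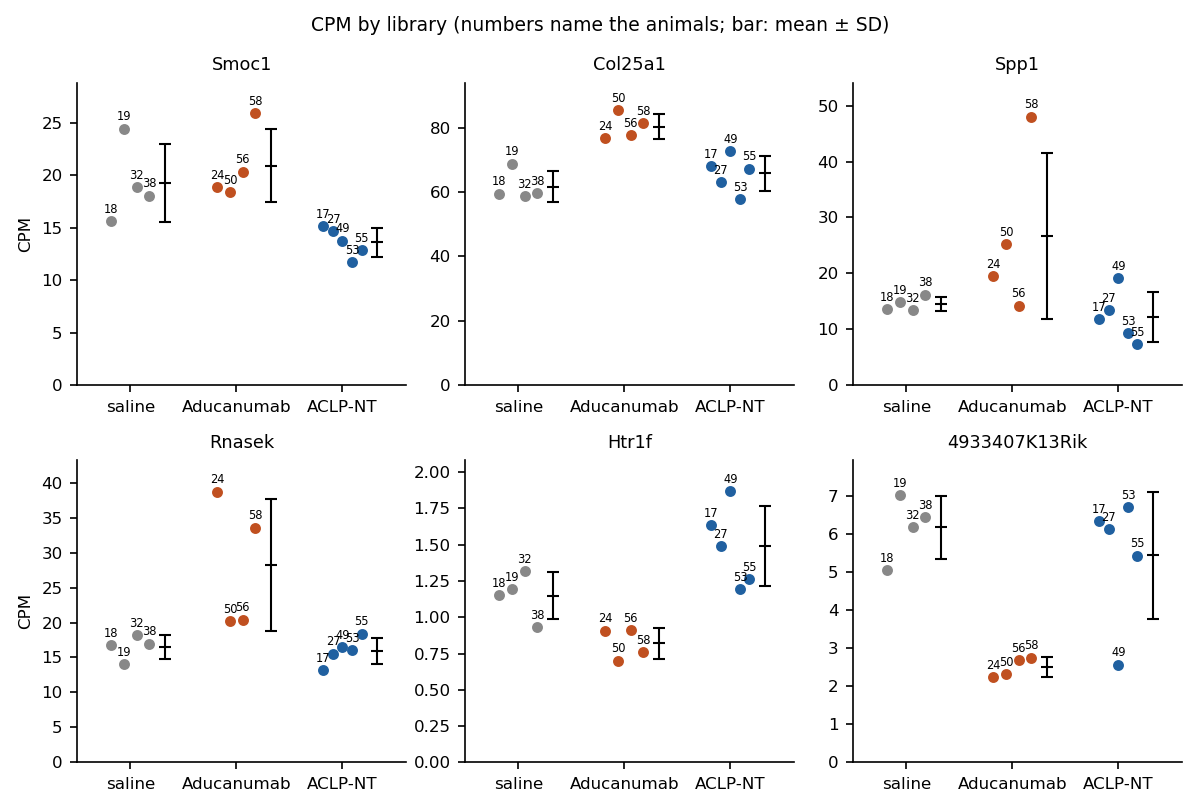
Level in CPM (vertical axis, from 0) of 6 genes in each library, grouped by treatment (horizontal axis); points carry the animal number and bars give mean ± SD. ACLP-NT lay below Aducanumab in every library for Smoc1, Col25a1 and Rnasek and above it for Htr1f, while Aducanumab 58 at 48.0 CPM stood apart for Spp1 and ACLP-NT 49 at 2.57 CPM stood apart for 4933407K13Rik.

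The genes named as higher in ACLP-NT had differing roles. Htr1f encodes an inhibitory serotonin receptor. It was read at 1.63, 1.49, 1.87, 1.20 and 1.26 CPM in ACLP-NT and at 0.907, 0.701, 0.909 and 0.761 CPM in Aducanumab. All ACLP-NT libraries were above all Aducanumab libraries, on counts of 64 to 122 reads against 40 to 58, and the saline mean of 1.15 CPM lay between. The Htr1f log2 fold change was 0.86 (SE 0.195, edgeR unadjusted p = 0.000604). Htr2a, an excitatory serotonin receptor, was 15.03 ± 0.972 CPM (SD, n = 5) in ACLP-NT and 12.1 ± 1.37 CPM (SD, n = 4) in Aducanumab, and saline (12.4 ± 1.04 CPM, SD, n = 4) was close to Aducanumab. The Htr2a log2 fold change was 0.31 (edgeR unadjusted p = 0.00382).

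Mfsd8 encodes a membrane protein of the lysosome whose loss causes a form of neuronal ceroid lipofuscinosis. The Mfsd8 level was 23.5, 25.1, 25.4, 27.5 and 24.6 CPM in ACLP-NT and 22.8, 21.9, 21.4 and 22.1 CPM in Aducanumab. The groups did not overlap, and saline lay between at 24.1 ± 0.807 CPM (SD, n = 4). Its log2 fold change was 0.19 (SE 0.0553, edgeR unadjusted p = 0.00357).

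Suv39h2, a histone H3 lysine methyltransferase, and Setmar, which holds a related methyltransferase domain, had log2 fold changes of 0.44 and 0.41. Cadm2, a synaptic adhesion protein, was 212 ± 9.84 CPM (SD, n = 5) in ACLP-NT and 181 ± 16.6 CPM (SD, n = 4) in Aducanumab, with Aducanumab 56 at 205 CPM inside the ACLP-NT range. Epha10, an ephrin receptor, and Uchl5, a deubiquitinase of the proteasome, had log2 fold changes of 0.17 and 0.20. For Epha10 and Uchl5 the saline means of 57.4 and 21.5 CPM were close to ACLP-NT (57.8 and 21.8 CPM), and Aducanumab was lower at 51.5 and 19.0 CPM. Hpn, a membrane serine protease, and Ovgp1, a chitinase-like glycoprotein, showed the same order, with saline means of 2.64 and 7.68 CPM, ACLP-NT means of 2.42 and 7.70 CPM and Aducanumab means of 1.69 and 5.95 CPM. Over Suv39h2, Setmar, Cadm2, Epha10, Uchl5, Hpn and Ovgp1, edgeR unadjusted p ran from 0.00117 to 0.00447, and only Cadm2 overlapped between the groups. As these genes too were picked by p in the same libraries, the lack of overlap is no separate evidence.

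The smallest p of all genes belonged to 4933407K13Rik, an uncharacterised transcript on chromosome X that was picked once its values were known. It was 6.35, 6.14, 2.57, 6.72 and 5.44 CPM in ACLP-NT, 2.25, 2.31, 2.70 and 2.76 CPM in Aducanumab and 5.07 to 7.03 CPM in saline. ACLP-NT 49 lay among the Aducanumab libraries, and the other 4 ACLP-NT libraries lay among the saline libraries. Its log2 fold change was 1.12 (SE 0.227, edgeR unadjusted p = 0.000227), with an adjusted p of 0.0223 in DESeq2. Without ACLP-NT 49, it was the single gene that edgeR called, with a log2 fold change of 1.302 and an adjusted p of 0.00445.

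Reactive astrocyte genes were lower in ACLP-NT. Of 26 members tested, 26 had a log2 fold change below 0, with a median of -0.30 against -0.0064 over all genes tested. None passed the adjusted edgeR test, 6 had an unadjusted p under 0.05 (1.71% of all genes were that low in this direction), and for 2 the groups did not overlap (0.644% of all genes). Against saline, the list's median was -0.30 in ACLP-NT and 0.06 in Aducanumab. The members share a cell type and a library, and a list score is no replicate. The score, the mean of the members' centred log2 CPM, was highest in Aducanumab 58 (0.64) and lowest in ACLP-NT 27 (-0.61). The other libraries overlapped, Aducanumab between -0.08 and 0.19 and ACLP-NT between -0.30 and 0.15. Without Aducanumab 58 the median was -0.12 with 24 of 26 members lower, and without both Aducanumab 58 and ACLP-NT 27, a choice made after seeing the data, it was -0.093 with 17 of 26 lower.

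The letters at the start sites are shown for 3 of the 26 reactive astrocyte genes. Capitals mark the motif of STAT factors (TTCNNNGAA) and that of AP-1 (TGANTCA), through which cytokine signals can reach astrocyte genes. RefSeq windows on GRCm38.p6 span 250 bases before to 50 after a gene's start, and 21 of the 26 genes matched. Gfap is the classical marker of reactivity, and Lcn2, the member with the largest difference, holds neither motif. Emp1 holds both motifs in the window shown and none in its other window, chr6:135367243-135367542. Both motifs read the same on either strand. The last capital run of Emp1 is an AP-1 match that overlaps a STAT match.
Gfap, chr11:102897151-102897450, minus strand: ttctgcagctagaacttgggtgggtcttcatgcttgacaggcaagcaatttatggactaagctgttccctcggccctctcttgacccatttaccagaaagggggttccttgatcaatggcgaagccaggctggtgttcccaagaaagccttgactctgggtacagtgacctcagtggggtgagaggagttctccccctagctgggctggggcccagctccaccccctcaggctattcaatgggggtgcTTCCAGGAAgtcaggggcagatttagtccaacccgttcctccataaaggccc
Emp1, chr6:135362681-135362980, plus strand: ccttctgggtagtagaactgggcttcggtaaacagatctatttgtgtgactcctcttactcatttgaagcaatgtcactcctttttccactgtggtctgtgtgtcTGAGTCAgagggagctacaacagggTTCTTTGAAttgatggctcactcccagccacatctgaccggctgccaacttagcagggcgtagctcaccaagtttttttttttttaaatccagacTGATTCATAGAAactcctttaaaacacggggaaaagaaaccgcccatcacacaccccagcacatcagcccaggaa
Lcn2, chr2:32387690-32387989, minus strand: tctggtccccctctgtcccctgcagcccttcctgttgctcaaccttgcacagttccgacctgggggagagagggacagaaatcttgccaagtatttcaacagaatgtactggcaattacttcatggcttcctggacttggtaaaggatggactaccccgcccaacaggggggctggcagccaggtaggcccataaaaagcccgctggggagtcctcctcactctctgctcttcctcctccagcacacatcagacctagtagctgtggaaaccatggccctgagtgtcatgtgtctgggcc
The STAT letters occurred in 2726 of all 32851 windows (8.30%) and in 5 of the 26 windows of the 21 matched genes (19.2%), those of Emp1, Gfap, Psmb8, Steap4 and Tgm1. The AP-1 letters occurred in 2565 of all windows (7.81%) and also in 5 of the 26 (19.2%), those of Cp, Cxcl10, Emp1, Gbp2 and Osmr. None of the genes Lcn2, Timp1, Ggta1, S1pr3, Vim and Serpina3n is among them. A match is a run of letters, and binding was not measured. Whether the motifs bear on the fold changes was not tested.

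Lcn2 encodes lipocalin 2, a secreted iron-siderophore binding protein of reactive astrocytes. Its level was 0.404, 0.0328, 0.291, 0.187 and 0.0924 CPM in ACLP-NT and 0.698, 0.561, 0.407 and 1.22 CPM in Aducanumab. The counts were low, 2 to 25 reads in ACLP-NT and 26 to 72 in Aducanumab, and the nearest libraries were ACLP-NT 17 with 25 reads and Aducanumab 56 with 26. The Lcn2 log2 fold change was -1.83 (SE 0.566, edgeR unadjusted p = 0.00612), and it ran from -2.24 to -1.45 with 1 library left out. Timp1, an inhibitor of metalloproteinases that glia release, was 0.776, 0.491, 0.674, 0.299 and 0.385 CPM in ACLP-NT and 1.06, 1.05, 1.07 and 1.10 CPM in Aducanumab. The Aducanumab libraries were close together (SD 0.0205 CPM) and all above ACLP-NT, on counts of 16 to 48 against 60 to 68 reads. The Timp1 log2 fold change was -1.02 (SE 0.321, edgeR unadjusted p = 0.00674). Saline was nearer to ACLP-NT, at 0.604 ± 0.245 CPM (SD, n = 4).

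Serpina3n, a secreted protease inhibitor that rises in reactive astrocytes, was 98.6, 73.3, 111, 79.8 and 99.98 CPM in ACLP-NT and 131, 108, 134 and 133 CPM in Aducanumab. Aducanumab 50 lay below ACLP-NT 49, and the other libraries were separate. The Serpina3n log2 fold change was -0.45 (SE 0.170, edgeR unadjusted p = 0.0190), with saline at 115 ± 32.3 CPM (SD, n = 4). Another 3 members at an unadjusted p under 0.05, Ggta1, S1pr3 and Vim, were picked once their values were known. Vim, the intermediate filament vimentin, was 66.7 ± 11.3 CPM (SD, n = 5) in ACLP-NT and 88.8 ± 21.4 CPM (SD, n = 4) in Aducanumab, where Aducanumab 58 reached 120 CPM. Its log2 fold change was -0.41 (edgeR unadjusted p = 0.0181), and -0.23 without Aducanumab 58 (edgeR unadjusted p = 0.106). Ggta1, a galactosyltransferase, and S1pr3, a receptor for sphingosine 1-phosphate, had log2 fold changes of -0.52 and -0.33, with saline means of 14.8 and 13.7 CPM near Aducanumab (14.3 and 14.1 CPM) and above ACLP-NT (9.95 and 11.2 CPM).

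Gfap, the intermediate filament that marks reactive astrocytes, was 1292, 769, 1307, 923 and 1252 CPM in ACLP-NT and 1455, 1147, 1231 and 1444 CPM in Aducanumab. Of the 5 ACLP-NT libraries, 3 lay inside the Aducanumab range and the other 2, 27 and 53, lay below it. The Gfap log2 fold change was -0.25 with a 95% interval from -0.60 to 0.10 (edgeR unadjusted p = 0.145), and without ACLP-NT 27 it was -0.14. Of the remaining members, the complement gene C4b was -0.42 (edgeR unadjusted p = 0.0529), and the other 18 ran from -0.67 (Fbln5) to -0.0035 (Cd109), each with an interval that included 0. Serping1, Cp and Fbln5 were highest in Aducanumab 58, at 30.1, 55.0 and 19.8 CPM, and cells of meninges and choroid plexus also express them. Without that library their log2 fold changes went from -0.58 to -0.06, from -0.52 to -0.10 and from -0.67 to -0.28. In Aducanumab 58 summed levels of meningeal and choroid plexus markers were 913 and 8474 CPM. Their part in these values was not tested.

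**Figure D2:**
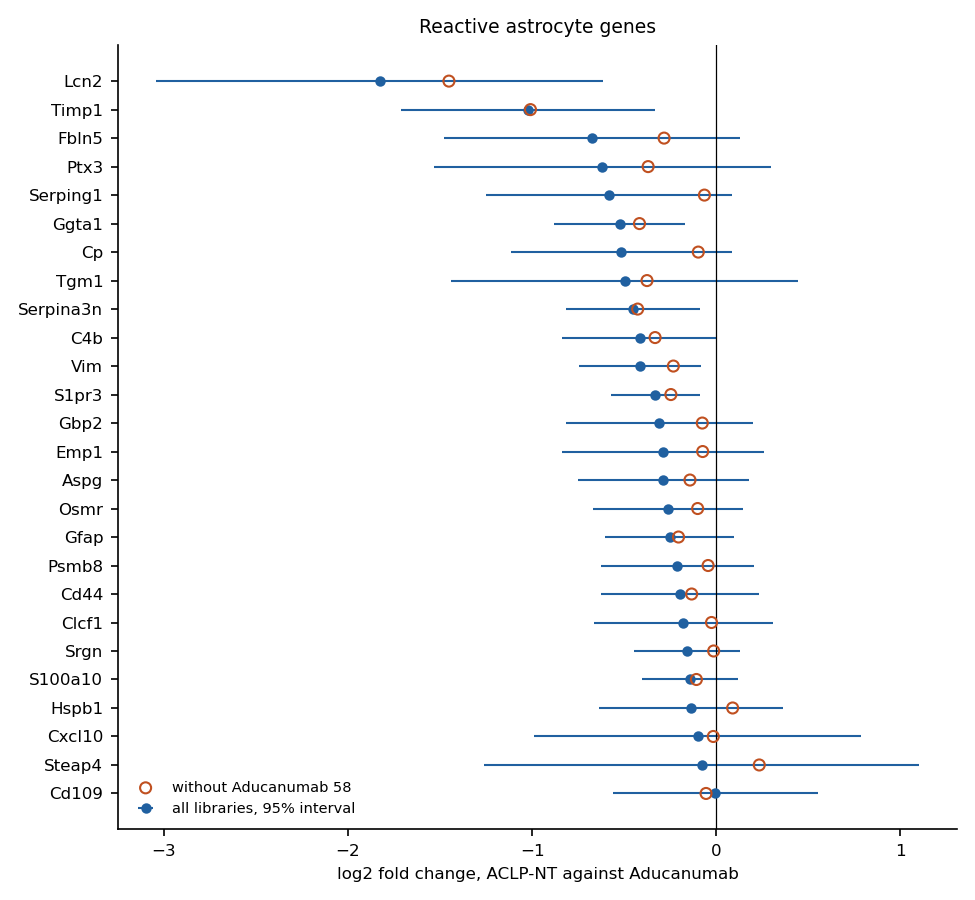
Log2 fold change, ACLP-NT against Aducanumab (horizontal axis), of the 26 reactive astrocyte genes (vertical axis). Filled points with lines are estimates with 95% intervals over all libraries, and open points leave out Aducanumab 58; all filled points lie below 0, and the median went from -0.30 to -0.12 without that library.

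Homeostatic genes of astrocytes differed little. Of 16 tested, 12 were lower in ACLP-NT and 4 higher, the median was -0.035 and 0 had an unadjusted p under 0.05. They include Aqp4, the water channel of astrocyte endfeet, at -0.12 (-0.04 without Aducanumab 58), and Aldoc, the astrocyte aldolase, at -0.05.

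Disease-associated microglial genes were lower in ACLP-NT by a median of -0.14, with 25 of 27 lower. An unadjusted p under 0.05 was found for 4 (1.71% of all genes were that low in this direction), and 0 passed the adjusted edgeR test. This direction rested on few libraries. Without Aducanumab 58 the median was -0.039 with 17 of 27 lower, and without both Aducanumab 58 and ACLP-NT 27 it was 0.023 with 10 of 27 lower. Against saline, the median was -0.31 in ACLP-NT and -0.16 in Aducanumab. Library scores overlapped widely: they ran from -0.60 (ACLP-NT 27) to 0.16 (ACLP-NT 49) in ACLP-NT and from -0.14 to 0.35 in Aducanumab.

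Trem2, the lipid receptor that drives the disease-associated state, was 74.5, 42.9, 77.1, 46.8 and 69.1 CPM in ACLP-NT and 78.9, 60.3, 58.7 and 83.3 CPM in Aducanumab. ACLP-NT 27 and 53 lay below all Aducanumab libraries and the other 3 among them. The Trem2 log2 fold change was -0.18 (95% interval -0.57 to 0.21, edgeR unadjusted p = 0.345). Cst7, which encodes the cathepsin inhibitor cystatin F, and Clec7a, the receptor dectin-1, had log2 fold changes of -0.16 (95% interval -0.72 to 0.40) and -0.12 (95% interval -0.57 to 0.34). Both were lowest in ACLP-NT 27 and 53, at 16.0 and 16.3 CPM for Cst7 and 12.3 and 13.9 CPM for Clec7a. Cybb, the catalytic subunit of the phagocyte NADPH oxidase, was 3.58 ± 0.834 CPM (SD, n = 5) in ACLP-NT, 5.67 ± 1.32 CPM (SD, n = 4) in Aducanumab and 6.07 ± 1.76 CPM (SD, n = 4) in saline, a log2 fold change of -0.66 between the treatments (edgeR unadjusted p = 0.0115). Spp1, described above, and Itgax and Gpnmb, at -0.58 and -0.43 and picked once their values were known, were the others at an unadjusted p under 0.05. Without Aducanumab 58 the log2 fold change of Gpnmb was -0.20 (edgeR unadjusted p = 0.252), that of Trem2 -0.09, that of Cst7 0.042 and that of Clec7a 0.010.

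Homeostatic microglial genes were about equal under the 2 treatments. Of 16 tested, 7 were higher and 9 lower in ACLP-NT, the median was -0.010, and against saline the medians were -0.28 in ACLP-NT and -0.28 in Aducanumab. P2ry12, the purinergic receptor that guides microglial processes, was 62.2, 54.8, 64.3, 55.1 and 61.4 CPM in ACLP-NT and 62.3, 56.8, 54.4 and 59.1 CPM in Aducanumab. The ranges nearly coincided, and 6 of the 9 libraries lay below the lowest saline library (61.9 to 79.7 CPM). The 95% interval of the P2ry12 log2 fold change (0.03) ran from -0.13 to 0.20. Intervals were of like width for Tmem119 (0.01, from -0.17 to 0.20), a microglial membrane protein, and for Csf1r (-0.07, from -0.26 to 0.12), the receptor that microglia need to survive. Sparc was the member with the smallest p, and the fructose transporter Slc2a5 was 0.26 (edgeR unadjusted p = 0.0769).

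Fc receptor genes, the route by which microglia bind an antibody, overlapped between the treatments. Of 11 tested, 10 were lower in ACLP-NT with a median of -0.11, 0 had an unadjusted p under 0.05, and without Aducanumab 58 the median was -0.037 with 7 lower. Fcgr3, a low-affinity receptor for IgG, was 34.7, 24.4, 40.8, 24.3 and 37.3 CPM in ACLP-NT and 39.9, 29.5, 31.2 and 39.2 CPM in Aducanumab. All 4 Aducanumab values lay inside the ACLP-NT range, and the log2 fold change was -0.11 (95% interval -0.43 to 0.20) and -0.05 without Aducanumab 58. Fcer1g, the signalling chain shared by Fc receptors, was at -0.09 (95% interval -0.45 to 0.27). Of 17 complement and phagocytosis genes, 13 were lower, by a median of -0.11, and 0 were at an unadjusted p under 0.05. Without Aducanumab 58 their median was -0.019 with 11 lower. C1qa, a chain of the first complement component, was at -0.09 (95% interval -0.42 to 0.24), and C3, the central component, at -0.50 (95% interval -1.46 to 0.46), and at -0.12 without Aducanumab 58.

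Lysosomal genes, the compartment named in the series title, differed by less than the spread between libraries. Of 50 hydrolases and membrane proteins tested, 40 were lower and 10 higher in ACLP-NT, the median was -0.044, and 0 had an unadjusted p under 0.05 in edgeR. Mfsd8, the gene of a lysosomal membrane protein described above as higher in ACLP-NT, is not in this list of 50. Without Aducanumab 58 the count was 27 lower and 23 higher, with a median of -0.0067. Ctsd, cathepsin D, the main aspartic protease of the lysosome, was 1166, 747, 1284, 890 and 1042 CPM in ACLP-NT and 1089, 861, 970 and 1299 CPM in Aducanumab. The groups overlapped over nearly their whole ranges, and the Ctsd log2 fold change was -0.04 (95% interval -0.38 to 0.30). Grn, which encodes the lysosomal protein progranulin, was 112, 94.6, 127, 96.7 and 107 CPM in ACLP-NT and 117, 92.3, 99.2 and 114 CPM in Aducanumab. These overlapping groups both lay below saline (137 ± 4.87 CPM, SD, n = 4), and the Grn log2 fold change between them was 0.03 (95% interval -0.16 to 0.21).

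Lamp1, the abundant glycoprotein of the lysosomal membrane, was at -0.05 (95% interval -0.20 to 0.11), and Tfeb, the transcription factor of lysosomal genes, at -0.09 (95% interval -0.34 to 0.17). Neu1, lysosomal sialidase, had the smallest p of the list, at -0.09 (SE 0.0426, edgeR unadjusted p = 0.0595). The proton pump subunits (18 V-ATPase genes) had a median of -0.0034 with 11 lower and 7 higher. Autophagy genes had a median of 0.0090 with 15 of 24 higher. For both lists 0 members had an unadjusted p under 0.05.

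**Figure D3:**
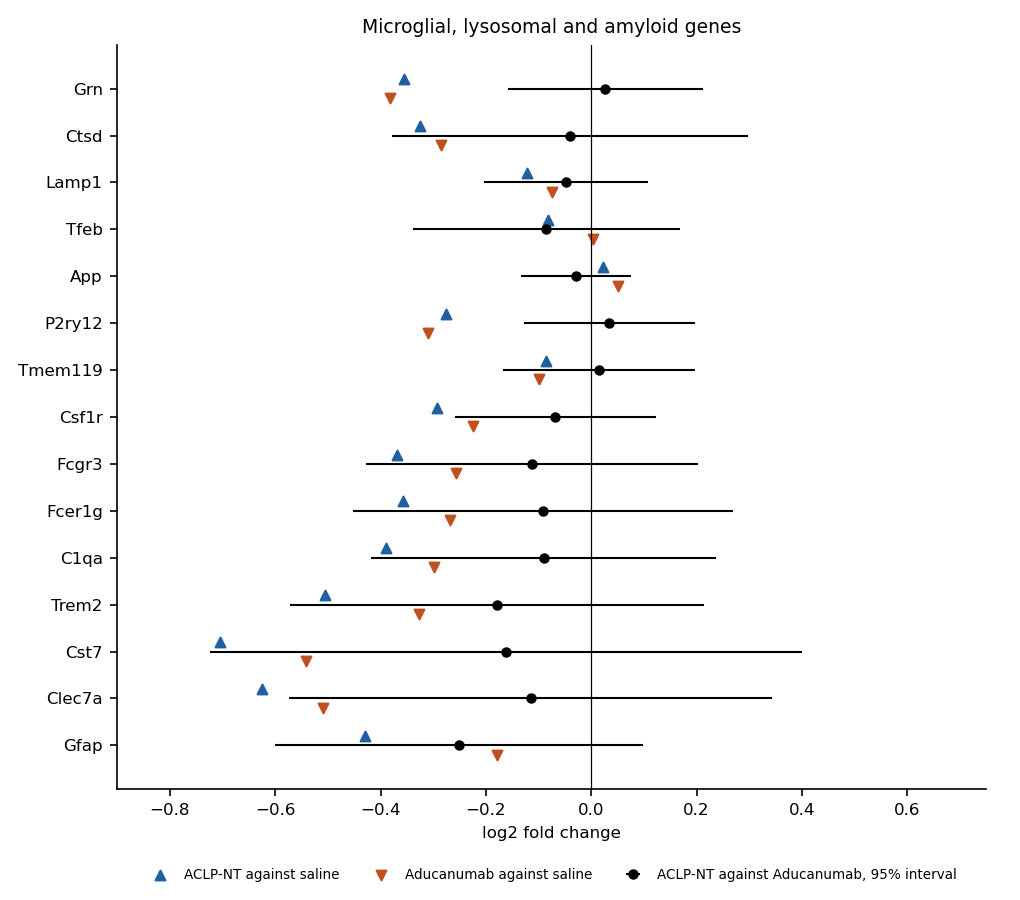
Log2 fold changes (horizontal axis) of 15 microglial, lysosomal, amyloid and astrocyte genes. Black points with lines are ACLP-NT against Aducanumab with 95% intervals, and triangles are each treatment against the shared saline libraries; all 15 intervals include 0.

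Among 24 genes of amyloid processing and removal, 11 were higher and 13 lower in ACLP-NT, with a median of -0.016. App was 1262 ± 33.7 CPM (SD, n = 5) in ACLP-NT and 1288 ± 40.0 CPM (SD, n = 4) in Aducanumab, and the interval of its log2 fold change of -0.03 ran from -0.13 to 0.08. The deposited table does not separate reads of the human transgene from those of the mouse gene. Col25a1, described above, and Bace2 were the 2 members at an unadjusted p under 0.05, both lower (1.71% of all genes were that low in this direction). Bace2, an aspartic protease that cleaves APP within the amyloid beta region, was 5.25, 2.85, 3.23, 2.69 and 1.46 CPM in ACLP-NT and 7.80, 5.79, 2.98 and 7.11 CPM in Aducanumab. Aducanumab 56 lay inside the ACLP-NT range and the other 3 above it (log2 fold change -0.93, SE 0.314, edgeR unadjusted p = 0.0101).

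Immune genes outside the microglial lists were mostly lower in ACLP-NT by small medians. Of 25 cytokine, chemokine and inflammasome genes tested, 18 were lower with a median of -0.11. An unadjusted p under 0.05 was found for 1, which was lower (1.71% of all genes were that low in this direction). Without Aducanumab 58 the median was -0.016 with 13 lower. That gene was Il1rn, the antagonist of the interleukin-1 receptor, with 4, 0, 6, 13 and 8 reads in ACLP-NT and 16, 46, 39 and 32 reads in Aducanumab. All ACLP-NT libraries were below all Aducanumab libraries, and saline held 7 to 24 reads. Its fitted log2 fold change of -2.42 (SE 0.651, edgeR unadjusted p = 0.00234) comes from these few reads. For antigen presentation genes the median was -0.10, with 16 of 22 lower, and without Aducanumab 58 the median was 0.038 with 10 lower. Cd74, the invariant chain of MHC class II, was 13.2 ± 5.49 CPM (SD, n = 5) in ACLP-NT and 23.5 ± 10.5 CPM (SD, n = 4) in Aducanumab, with Aducanumab 58 at 38.2 CPM. Its log2 fold change was -0.83 (edgeR unadjusted p = 0.0206), and -0.50 without Aducanumab 58 (edgeR unadjusted p = 0.122). For interferon response genes the median was -0.049, with 20 of 30 lower and 0 at an unadjusted p under 0.05. Their score was both lowest and highest in ACLP-NT libraries, at -0.78 in ACLP-NT 27 and 0.55 in ACLP-NT 49.

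**Figure D4:**
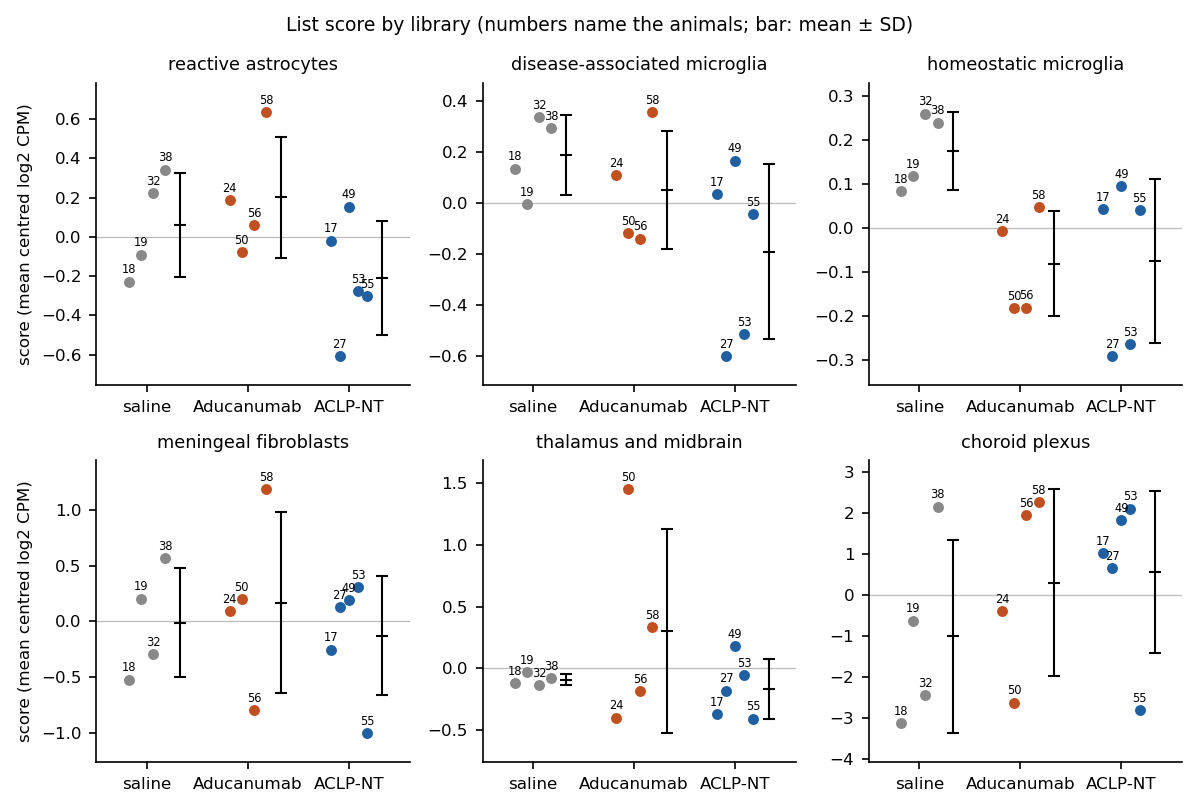
Score of 6 gene lists (vertical axis, mean centred log2 CPM of the members) in each library, grouped by treatment (horizontal axis); points carry the animal number and bars give mean ± SD. The scores of the 2 treatments overlap in every panel, with Aducanumab 58 at 0.64 for reactive astrocytes and 1.19 for meningeal fibroblasts, and Aducanumab 50 at 1.45 for thalamus and midbrain.

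Marker genes of hippocampal neurons were mostly higher in ACLP-NT. Of 20 markers of hippocampal subfields, 15 were higher with a median of 0.12, and 4 had an unadjusted p under 0.05 (against 1.53% of all genes with such a p in this direction). Against the shared saline libraries, 20 of the 20 were higher in ACLP-NT and 17 were higher in Aducanumab. Wfs1 was not among those 17. Wfs1, a protein of the endoplasmic reticulum that marks CA1 pyramidal cells, was 105, 118, 89.5, 98.1 and 78.1 CPM in ACLP-NT and 59.4, 76.7, 75.1 and 73.0 CPM in Aducanumab. The 2 treatments did not overlap, and saline (76.5 to 120 CPM) covered the ACLP-NT range and lay above all Aducanumab libraries but Aducanumab 50. The Wfs1 log2 fold change was 0.46 (SE 0.138, edgeR unadjusted p = 0.00497). Trpc6, a calcium channel of dentate granule cells, was at 0.22 (edgeR unadjusted p = 0.0201). Lefty1 and Lct, at 0.29 and 0.41 and picked once their values were known, were the others. Without Aducanumab 50 the median of the list was 0.065 with 12 of 20 higher.

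Of 20 immediate early genes, which neurons switch on with activity, 16 were higher with a median of 0.14. An unadjusted p under 0.05 was found for 3 (against 3.24% of all genes tested, in either direction). Arc, a synaptic protein induced by activity, was 124, 135, 118, 133 and 119 CPM in ACLP-NT and 107, 99.98, 124 and 91.6 CPM in Aducanumab. Aducanumab 56 was level with ACLP-NT and the other 3 were below it (log2 fold change 0.25, edgeR unadjusted p = 0.0187). Nr4a1, a nuclear receptor of the same response, was at 0.18 (edgeR unadjusted p = 0.0295), and at 0.10 without Aducanumab 58, which was lowest with 41.8 CPM. The median of the list was 0.060 without that library. Glutamatergic synapse genes (28 tested) and GABA interneuron genes (16 tested) had medians of 0.021 and 0.061 with 0 at an unadjusted p under 0.05.

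For markers of thalamus, meninges and blood, the difference moved with single Aducanumab libraries. All 14 tested markers of thalamus and midbrain were lower in ACLP-NT, with a median of -0.43. Gbx2, a transcription factor of thalamic neurons, had 0, 5, 0, 5 and 4 reads in ACLP-NT and 11, 65, 13 and 11 reads in Aducanumab, with 3 to 10 reads in saline. All Aducanumab libraries were above all ACLP-NT libraries for Gbx2, with Aducanumab 50 highest by far, and Synpo2, an actin-binding protein used here as a thalamic marker, reached 19.4 CPM there against 5.05 to 9.95 CPM in the other 8 libraries. Without Aducanumab 50 the log2 fold changes of Gbx2 and Synpo2 went from -3.15 to -2.01 and from -0.72 to -0.32, and the median of the list was 0.038 with 6 of 14 lower. Markers of meningeal fibroblasts (15 of 16 lower, median -0.42) moved with Aducanumab 58: the collagen gene Col3a1 was 14.0 CPM there, 4.76 to 4.86 CPM in the other 3 Aducanumab libraries and 1.77 to 5.19 CPM in ACLP-NT. Without that library the median was 0.0056 with 8 of 16 lower. Hemoglobin genes with Alas2 (5 of 5 lower, median -0.60) were also highest in Aducanumab 58, where Hba-a1 stood at 103 CPM, and the median without it was -0.23. Smooth muscle genes showed the same library, with Myh11 at 33.8 CPM and Acta2 at 34.0 CPM in Aducanumab 58. Without it the log2 fold changes went from -0.76 to -0.28 for Myh11, from -0.75 to -0.25 for Acta2, from -0.85 to -0.29 for Col3a1 and from -0.60 to -0.28 for Hba-a1. Neocortical markers did not follow 1 Aducanumab library. They were higher in ACLP-NT (10 of 13, median 0.15, between 0.070 and 0.21 with any 1 library left out), among them Rxfp1, a relaxin receptor, at 1.05 (edgeR unadjusted p = 0.0286). The saline mean of Rxfp1, 19.0 CPM, was above both treatments. Of the 13 neocortical markers, 0 were above saline in ACLP-NT and 1 was above the same saline libraries in Aducanumab.

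**Figure D5:**
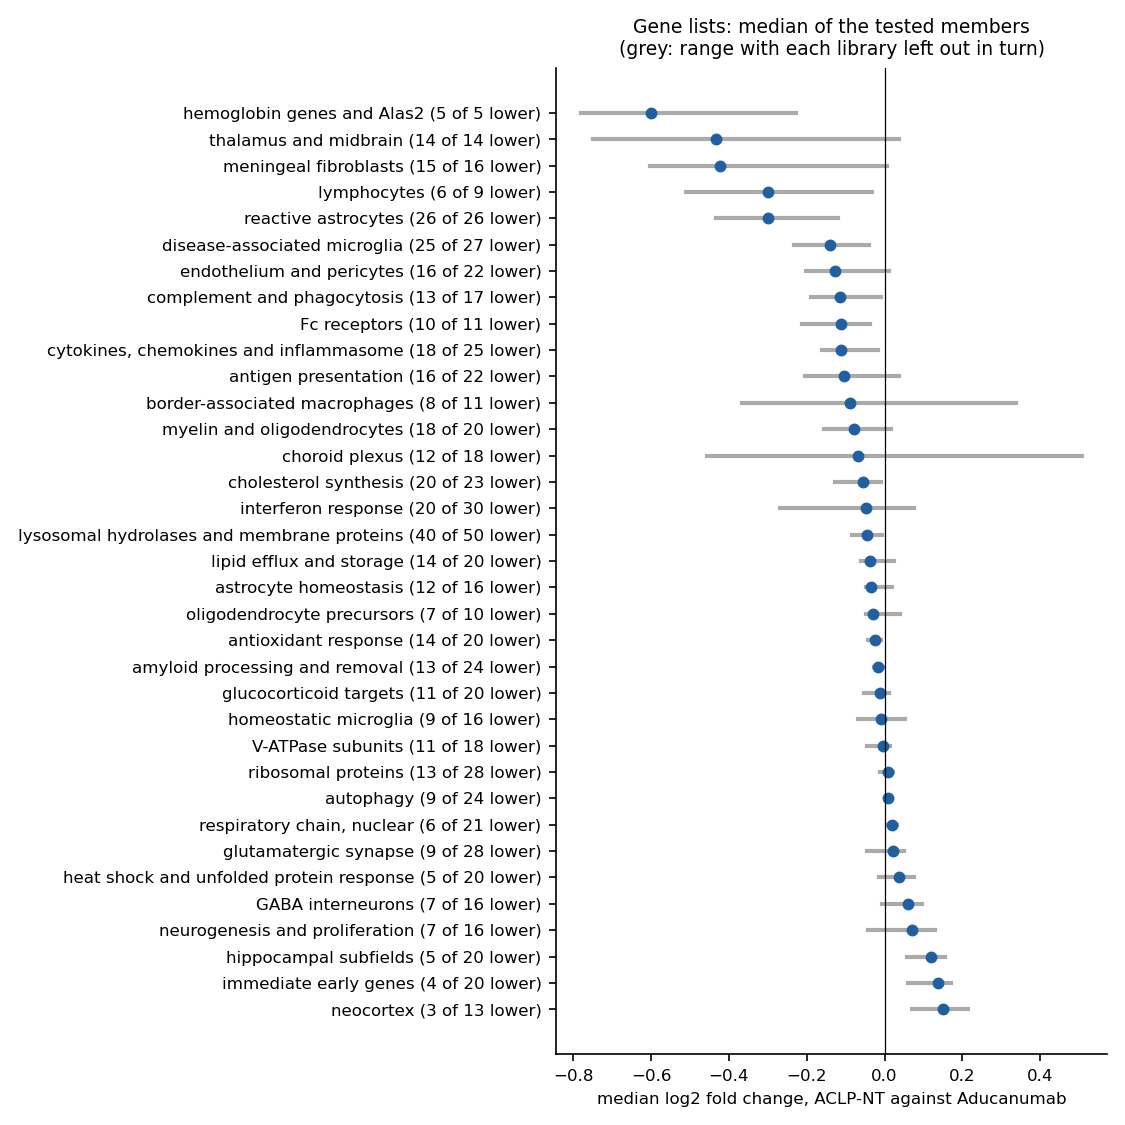
Median log2 fold change, ACLP-NT against Aducanumab (horizontal axis), of the tested members of 35 gene lists (vertical axis, with the number lower in ACLP-NT). Grey bars span the medians with each library left out in turn; the bars of the meningeal and thalamic lists reach past 0, and that of the reactive astrocyte list runs from -0.43 to -0.12.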

How the data were processed

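Hippocampal mRNA of 13 5xFAD mice was sequenced after oligo(dT) selection, per the labels' protocols. The authors deposited 1 table of 36287 genes with whole-number counts per library, not normalized, and with FPKM, per the file headers. Tools named in the submitters' processing notes are edgeR, with no version, StringTie 1.3.4d, HISAT2 2.0.4 and cutadapt 1.9. The sources used here do not give the counter, genome build or annotation, so no coordinates of the table are printed. Columns were matched to animals by library name, and samples were grouped by the treatment in their titles.

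Counts were filtered with filterByExpr (22065 genes kept), scaled by TMM and fitted with the edgeR 4.0.16 quasi-likelihood model in R 4.3.3, with the 3 treatments in 1 fit. ACLP-NT was tested against Aducanumab, two-sided, with Benjamini-Hochberg adjustment at 0.05. Levels are CPM after TMM. They are not scaled to gene length and are compared between libraries only. The SE is the absolute log2 fold change over the square root of F, and 95% intervals use the model's degrees of freedom. List scores use log2 CPM with a prior count of 2. Low counts limit 7013 genes (31.8% of those tested) with a mean under 100 reads, and the common coefficient of biological variation was 0.226. The fit was also run on simulated counts, and no result given here rests on that run.

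The treatments compared, the 35 gene lists and the named genes were chosen with earlier results of these data known. Of the list genes, 6 older symbols were matched through the GENCODE M21 names. The text names the 10 genes with the smallest p in each direction (mean of at least 1 CPM, no predicted genes, clones or pseudogenes), a fixed set of 20 genes and 2 members of each list, those of smallest p, and leaves some out. No set test was run: lists are described by counts and medians. The fit was repeated with no filter, with a filter at a mean FPKM of 1, with RLE and with upper quartile scaling, on only the 2 groups compared, as a robust fit, with the choroid plexus score as a covariate, with DESeq2 1.42.0, with limma 3.58.1 on log2(FPKM + 1), with each library left out, with Aducanumab 50 and 58 left out together and, added after seeing the data, without Aducanumab 58 and ACLP-NT 27. Promoter letters come from RefSeq windows on GRCm38.p6.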

Additional observations from a re-analysis of the deposited data

Results flagged for a closer look

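In 20 of 315 groups of libraries checked (6.35%), 1 library lay farther from its nearest neighbour than the 95% limit set for groups of that size, as a share of the group's range. Chance alone gives about 1 in 20 groups. No cause of any of these was tested.

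Aducanumab 58 was such a library for 8 values. Its scores were 0.358 for neurogenesis and proliferation genes, 0.200 for lipid efflux and storage genes and 0.147 for antioxidant genes, each the highest of the Aducanumab group. It was the highest for Lamp1 (383.4 CPM) and for Col3a1 (14.0 CPM), and the lowest for Hgf (4.18 CPM), Neu1 (51.6 CPM) and Nr4a1 (41.8 CPM). Aducanumab 50 was the highest for Gbx2 (1.14 CPM) and the lowest for Serpina3n (108 CPM).

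Among ACLP-NT libraries, ACLP-NT 49 was apart for the autophagy score (0.0528, highest), for the astrocyte homeostasis score (-0.0488, lowest) and for S1pr3 (13.8 CPM, highest). ACLP-NT 55 was the lowest for the scores of border-associated macrophages (-0.455) and of endothelium and pericytes (-0.394).

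Among saline libraries, saline 18 was the lowest for the astrocyte homeostasis score (-0.0398) and the highest for Rxfp1 (32.7 CPM). Saline 19 was the highest for Col25a1 (68.8 CPM), saline 32 for Hpn (3.30 CPM) and saline 38 for Ttr (4482 CPM).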

How the results depend on the processing

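The 24 alternatives left the main result almost as it was. The count of genes past an adjusted p of 0.05 was 0 in all but 2: DESeq2 called 3, and leaving out 1 library gave between 0 and 1, the call being made without ACLP-NT 49. The count at an unadjusted p under 0.05 was 716, and became 1425 without a filter, where more genes are tested, and 462 with a mean FPKM of at least 1, where fewer are. It ran from 600 to 1036 with 1 library left out. Of 1665 gene values under alternatives, 43 had the opposite sign, all of genes whose interval includes 0, and the cause was not tested. With 1 library left out the log2 fold changes that crossed 0 ran as follows: Cst7 -0.29 to 0.042, Clec7a -0.23 to 0.017, Tmem119 -0.029 to 0.082, Fcer1g -0.21 to 0.048, C1qa -0.18 to 0.012, Grn -0.037 to 0.079, Ctsd -0.13 to 0.077, Lamp1 -0.095 to 0.0087, Tfeb -0.17 to 0.022, Ttr -0.44 to 0.52. Without Aducanumab 50 and 58 the opposite signs were Grn -0.0047, Lamp1 0.012, Tfeb 0.035, Cldn5 0.070, Mrc1 0.44. Without Aducanumab 58 and ACLP-NT 27 they were Trem2 0.023, Cst7 0.18, Clec7a 0.14, Csf1r 0.022, Fcgr3 0.036, Fcer1g 0.16, C1qa 0.094, C3 0.096, Ctsd 0.17, Lamp1 0.061, Tfeb 0.048, Ttr 0.63. Ttr was also 0.064 with the choroid plexus covariate and 0.44 with limma. Of 840 list medians, 5 moved by more than the spread between libraries, all without Aducanumab 50 and 58. With limma and with the covariate, 25 of 26 reactive astrocyte genes were lower. The 5 and 4 libraries per group and the depth limit what could be seen. Over genes with at least 1 CPM, the median 95% interval, not adjusted for the number of genes, reached 0.20 to either side. That is no detection limit of the adjusted edgeR test, which larger differences also failed to pass, such as Col25a1 at -0.29. No paired analysis was possible because the groups have no replicate number in common.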

Other observations

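Lists not described above differed by small medians between ACLP-NT and Aducanumab, apart from the lymphocyte markers. Myelin and oligodendrocyte genes were lower in ACLP-NT for 18 of 20 members (median -0.079), but 2 libraries stood apart: scores were -0.434 in ACLP-NT 17 and -0.449 in ACLP-NT 27, and 0.178 to 0.237 in the other 3. Without either one the median was above 0, at 0.016 without ACLP-NT 17 and 0.011 without ACLP-NT 27. Lower too were cholesterol synthesis genes for 20 of 23 (median -0.055) and genes of lipid efflux and storage for 14 of 20 (median -0.038, and 0.024 without Aducanumab 58). Mylip, a ubiquitin ligase that lowers the LDL receptor, was the one lipid gene at an unadjusted p under 0.05, with a log2 fold change of 0.25 (edgeR unadjusted p = 0.0305). Oligodendrocyte precursor genes had a median of -0.029, respiratory chain genes 0.019, ribosomal protein genes 0.0090 and heat shock and unfolded protein genes 0.038, with 0 members at an unadjusted p under 0.05 in each. Of 15 markers of lymphocytes 9 were tested. Ptprc, which microglia also express, averaged 18.5 CPM in ACLP-NT and the other 8 averaged 1.25 CPM or less there. The median over all 9 was -0.30, and it became -0.031 without Aducanumab 58. Markers of border-associated macrophages, Mrc1 among them at -0.50 (95% interval -1.25 to 0.25), had a median of -0.088. Without Aducanumab 58 Mrc1 was at -0.02 and the median was 0.34. Cldn5, the tight junction protein of brain endothelium, was at -0.13 (95% interval -0.33 to 0.08), and at -0.02 without Aducanumab 58.

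Of 20 glucocorticoid target genes, 17 had a higher mean level in ACLP-NT than in saline and 18 in Aducanumab than in the same saline libraries. The medians were 0.23 and 0.24, against -0.0015 and 0.0036 over all genes tested. All 4 Aducanumab scores (0.0316 to 0.275) were above saline (-0.209 to -0.116), while ACLP-NT ran from -0.212 in ACLP-NT 55, below all saline libraries, to 0.164, and the median between the treatments was -0.012. Klf9, a transcription factor induced by corticosterone, was 183 ± 7.98 CPM (SD, n = 5) in ACLP-NT, 169 ± 8.54 CPM (SD, n = 4) in Aducanumab and 156 ± 8.93 CPM (SD, n = 4) in saline. Its log2 fold change between the treatments was 0.11 (edgeR unadjusted p = 0.0355). Sox11, a transcription factor of immature neurons, was 18.0 ± 1.34 CPM (SD, n = 5) in ACLP-NT and 15.4 ± 0.925 CPM (SD, n = 4) in Aducanumab, a log2 fold change of 0.23 (edgeR unadjusted p = 0.0139). Gsr, glutathione reductase, was 22.3, 19.2, 21.8, 18.7 and 20.5 CPM in ACLP-NT and 22.6, 22.5, 23.4 and 22.9 CPM in Aducanumab, without overlap (log2 fold change -0.16, edgeR unadjusted p = 0.0223). Psmb9, a subunit of the immunoproteasome, was at -0.35 between the treatments (edgeR unadjusted p = 0.0628), with -0.81 in ACLP-NT and -0.46 in Aducanumab against saline.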
